A study of Mus musculus with 20 samples.

Results

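The livers described here came from mice treated with siRNA against Eif3m, and the question was how their ribosome footprints at day 13 of treatment differed from those at day 9. The members are the 5 footprint libraries whose titles name Eif3m siRNA, 3 from day 9 and 2 from day 13, out of 10 footprint libraries and 20 libraries in all, the other 10 being RNA libraries. All mice were FVB/N, 6 to 8 weeks old, and all of them, controls included, received an LNP formulation into the tail vein at a dose of 0.5 mg/kg with 1 injection in 5 days. The controls were given a scrambled luciferase siRNA for the same 9 or 13 days and gave 3 and 2 footprint libraries. The labels name Epicenter ART-seq as the footprint kit on both days and ground whole liver as the source, so each library mixes all cell types of the organ. They do not say which cells took up the siRNA, nor whether each library is a separate animal, so p-values measure the spread between these libraries, which may be technical. Bracketed library names follow 1 scheme at day 9 and another at day 13 in both siRNA groups, so day, set of mice and library run cannot be told apart, and the change between days in control livers was measured as the background.

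Eif3m encodes a subunit of eIF3, the large complex that sits on the small ribosomal subunit and brings it to mRNA at the start of translation. Ribosome profiling sequences the short mRNA stretches that ribosomes protect from nuclease, so a gene's footprint count follows both how much of its mRNA there is and how densely ribosomes cover it. Hepatocytes make most of the protein that the liver secretes, and many of their ribosomes are engaged on a few mRNAs such as that of albumin.

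Total counts were 4.50, 6.06 and 6.16 M (megacounts) in the 3 Eif3m siRNA libraries of day 9 and 1.64 and 6.52 M in replicates 1 and 2 of day 13. Control libraries held 7.04 to 7.69 M at day 9 and 1.97 and 2.12 M at day 13. Replicates of the Eif3m siRNA groups correlated across genes with r between 0.968 and 0.982 (log scale), and their counts differed by 3.91 to 16.7 in chi-square per gene, beyond counting error. Marker lists fitted the liver label: 12 hepatocyte markers summed to 135405 to 172592 CPM (counts scaled to a common library total) in the Eif3m siRNA libraries, while the lymphocyte list stayed between 7.91 and 14.9 CPM and 8 of 18 exocrine pancreas markers were at 0 in all 5 libraries.

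Between day 9 and day 13, 2313 of 12213 tested genes changed in Eif3m siRNA livers at an adjusted p below 0.05 (edgeR quasi-likelihood test, Benjamini-Hochberg), which is 18.9%. Of these, 1248 rose (10.2% of genes tested) and 1065 fell (8.72%). In control livers 1264 genes changed over the same days (10.3%), 668 of them upward (5.47%) and 596 downward (4.88%). These are the backgrounds against which the counts in gene lists below are to be read, and the median gene changed by -0.01 (log2) in the Eif3m siRNA livers and -0.02 in the controls.

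Leaving out Eif3m siRNA day 13 replicate 2 left a lone day 13 library of 1.64 M counts, which was assumed to vary like the other groups. Without replicate 2 the count of changed genes dropped most, for a cause that was not tested. It was 1633 without day 13 replicate 1, 2951, 2045 and 1461 without day 9 replicates 1, 2 and 3, and 1395 when every library was thinned to the smallest. The control count of 1264 dropped to 494 and 322 without control day 13 replicates 1 and 2, and to 780 and 799 without control day 9 replicates 1 and 2. With library totals in place of TMM scaling, 38.9% of the control calls were higher, against 52.8% as fitted.

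The Eif3m siRNA and control livers moved largely the same way with day. Among the 2313 genes called in Eif3m siRNA livers, 2002 (86.6%) had the same sign in control livers, against 67.8% of all genes tested. A total of 661 genes were called in the same direction in both, which is 28.6% of the Eif3m siRNA calls and 52.3% of the control calls. Across genes the 2 day changes, which share no library, correlated with Pearson's r of 0.441 and Spearman's rho of 0.463 (12213 genes, which are not independent replicates).

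**Figure D1:**
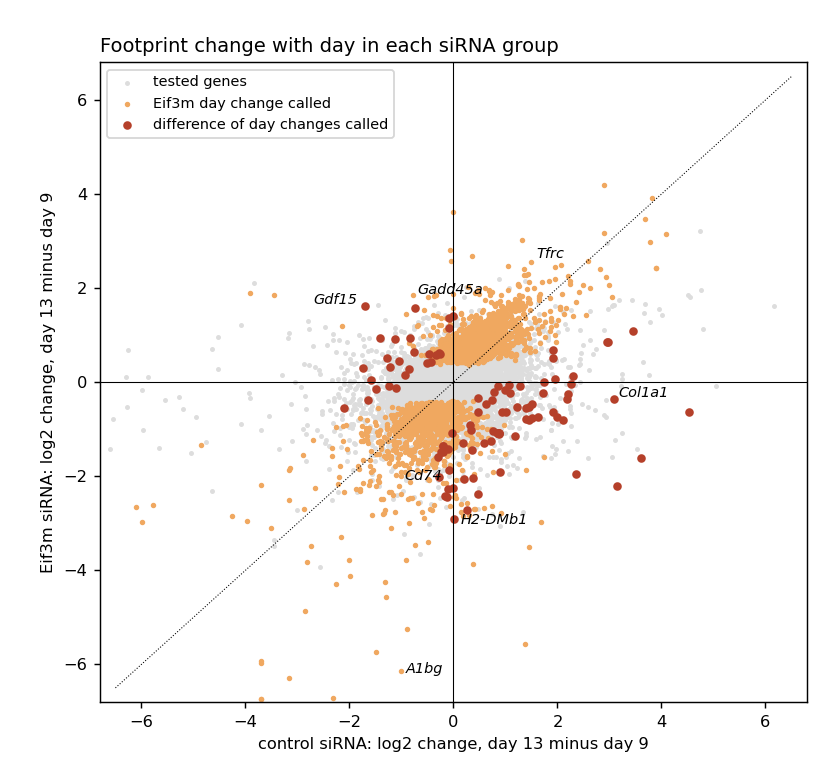
Each point is a tested gene, placed by its log2 footprint change from day 9 to day 13 in control siRNA livers (horizontal) and in Eif3m siRNA livers (vertical). Orange points are the genes called in Eif3m siRNA livers, red points the 100 genes whose day changes differed between the siRNAs, and the dotted line marks equal change. Most orange points share the sign of their control change, and 4 genes lie outside the axes.

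Eif3m itself had 5.70, 6.03 and 6.77 CPM in the day 9 libraries and 5.73 and 2.46 CPM at day 13, with control libraries between 73.9 and 78.8 CPM on both days. All 5 Eif3m siRNA libraries therefore lay far below every control library, on day 9 as on day 13. Within the Eif3m siRNA livers the fall from day 9 to day 13 was -0.94 ± 0.29 (log2 ± SE, adjusted p = 0.028), but the groups overlapped and the lower value came from replicate 2 of day 13. The control change was 0.03, and the difference between the 2 day changes did not pass the test (adjusted p = 0.22). Among the 14 eIF3 genes measured, 6 rose, Eif3m fell and 7 did not pass, with a median of 0.31. In control livers 3 rose and none fell, with a median of 0.10.

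Eif3g, an RNA-binding subunit at the periphery of the complex, had 84.1, 91.4 and 91.8 CPM at day 9 and 151 and 169 CPM at day 13, a rise of 0.85 ± 0.13 (adjusted p = 2.0e-04), against a control change of 0.12 (adjusted p = 0.67). Eif3f rose by 0.94 ± 0.24 (adjusted p = 0.015), and so did its control value, by 1.01. Eif3l rose by 0.60 and Eif3h by 0.52, with control changes of 0.65 (adjusted p = 0.011) and 0.29 (adjusted p = 0.22). Eif3b and Eif3d rose by 0.53 and 0.47, with control changes of 0.43 (adjusted p = 0.055) and 0.08 (adjusted p = 0.76). Eif3a, Eif3c, Eif3e, Eif3i and Eif3k had changes between 0.15 and 0.33 that did not pass the test. Eif3j1 and Eif3j2 had the same values in every library, so their reads cannot be told apart, and their change of -0.25 did not pass either. No eIF3 gene differed between the siRNAs in its day change by the same test. The count of eIF3 rises fell to 1 without day 13 replicate 2 and to 4 without day 13 replicate 1 or day 9 replicate 3.

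Ribosomal protein genes had the largest share of called rises among the 49 lists. Of 44 large-subunit genes tested 38 rose and none fell, with a median of 1.14, and of 32 small-subunit genes 28 rose and none fell, with a median of 1.27, against 10.2% of all genes rising. Summed over the 47 large-subunit genes, the day 9 libraries held 4671, 4020 and 3992 CPM and the day 13 libraries 8449 and 8309 CPM. The 32 small-subunit genes summed to 2865, 2422 and 2393 CPM at day 9 and 5567 and 5425 CPM at day 13. Both day 13 libraries thus lay above every day 9 library.

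Control livers also rose in these genes: 20 large-subunit and 18 small-subunit genes were called higher and none lower, with medians of 0.78 and 0.89. Their sums went from 2148, 2160 and 3068 CPM at day 9 to 3264 and 4324 CPM at day 13 for the large subunit. None of the tested genes of either list differed in its day change between the siRNAs, although 43 of 44 large-subunit genes had a larger rise, or smaller fall, in the Eif3m siRNA livers. Erythroid markers also moved with day, most in the controls: 12 markers summed to 379 to 494 CPM in day 9 controls, 5497 and 1725 CPM in day 13 controls, 266 to 461 CPM in Eif3m siRNA livers at day 9 and 1320 and 735 CPM at day 13. Ahsp and Epb42 were among the markers at 0 in all 5 Eif3m siRNA libraries, none of the 8 erythroid genes tested passed in them (median 1.63), 7 rose in the controls, and the part of blood cells in the ribosomal protein result was not tested. The large-subunit count ranged from 27 to 41 and the small-subunit count from 21 to 27 when any 1 footprint library was left out, the fewest in each case without day 13 replicate 2.

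Rpl12 had 21.4, 18.2 and 11.3 CPM at day 9 and 64.8 and 73.4 CPM at day 13, a rise of 2.05 ± 0.20 (adjusted p = 4.6e-06), against 1.27 in controls. Rps19, a small-subunit protein that is mutated in Diamond-Blackfan anaemia, had 17.3, 13.4 and 16.1 CPM at day 9 and 55.1 and 55.8 CPM at day 13, a rise of 1.84 ± 0.19 (adjusted p = 9.0e-06). Neither gene's day groups overlapped, in Eif3m siRNA livers or in controls. Rps18 rose by 1.76, Rps12 by 1.80, Rpsa by 1.61, Rpl36 by 1.71 and Rpl32 by 1.68. Rpl23 rose by 1.92 ± 0.61 from very low values, with 0.359 to 1.76 CPM at day 9 and 1.91 and 3.51 CPM at day 13. Many ribosomal protein genes have near-identical processed pseudogenes, and the counting may have split their reads: Rps19-ps2 and Rpsa-ps5, which rank among the largest rises, each gained 2.13.

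The elongation factors and other mRNAs known to carry a 5′ terminal oligopyrimidine (TOP) tract moved less evenly. Of 18 tested, 7 rose and none fell in Eif3m siRNA livers (median 0.59), while 10 rose and none fell in controls (median 0.96). Rack1, a scaffold protein of the small subunit, had 170, 128 and 108 CPM at day 9 and 458 and 408 CPM at day 13, a rise of 1.68 ± 0.21 (adjusted p = 1.0e-04). Eef1b2, Eef1g and Eef1d, the exchange factor subunits for eEF1A, rose by 1.39, 1.08 and 0.98 in Eif3m siRNA livers and by 0.98, 0.94 and 0.56 in controls. All 4 genes had day 13 libraries above every day 9 library, in Eif3m siRNA livers and also in controls. Without control day 9 replicate 3 the fit called 10 genes higher, and without day 13 replicate 2 it called 5.

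TOP mRNAs begin with a C followed by an unbroken run of pyrimidines, which is the sequence through which mTOR signalling controls their translation. The start regions of 5 genes of these lists that rose, and of 2 mitochondrial ribosomal protein genes that rose by less, are shown here to let the runs be compared: Rpl12, Rps12, Rps18 and Rack1 are the named genes of these lists with a RefSeq window and a run of at least 7 bases, and Rps19 is 1 of those without. Each window holds 10 bases before and 20 bases from the most upstream RefSeq start (GRCm38.p6), 5′ to 3′ on the gene's strand, with its longest unbroken run of C and T in capitals. The windows are chr2:32961702-32961731 (+) for Rpl12, chr10:23787190-23787219 (-) for Rps12, chr17:33955646-33955675 (-) for Rps18, chr11:48800350-48800379 (+) for Rack1, chr7:24884582-24884611 (+) for Rps19, chr11:88204378-88204407 (+) for Mrps23 and chr2:28468056-28468085 (+) for Mrps2.
Rpl12: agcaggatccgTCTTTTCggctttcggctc
Rps12: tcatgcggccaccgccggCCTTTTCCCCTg
Rps18: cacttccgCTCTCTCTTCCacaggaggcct
Rack1: gccgCTCTTTCTTTTTCTCCacagggtcgt
Rps19: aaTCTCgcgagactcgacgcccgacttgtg
Mrps23: cttggcttgcttgctgccgCTTCCgcttcc
Mrps2: cgggcaggaagagTCTCTgcaggatctctg
The capitals span 7, 11, 11 and 16 bases in Rpl12, Rps12, Rps18 and Rack1, 4 in Rps19, and 5 bases in each mitochondrial gene. A run of at least 7 C or T in any order was found in this window in 16 of 34 matched large-subunit genes (47.1%) and 11 of 24 small-subunit genes (45.8%), against 17.9% of all 27025 genes with a RefSeq start. For the opposite strand, a run of at least 7 A or G was found in 1 gene of each list (2.94% and 4.17%) and in 20.3% of all genes. In the list of elongation factors and other TOP mRNAs both runs were equally frequent, each in 5 of 12 matched genes (41.7%). Mitochondrial ribosomal protein genes held the C or T run in 9 of 67 cases (13.4%) and ribosome biogenesis genes in 18 of 98 (18.4%). A run is a description of letters near an annotated start. Rps19, Rpsa, Eef1b2 and Rpl23, which rose by 1.84, 1.61, 1.39 and 1.92, had longest runs of 4, 5, 4 and 3 bases, so the rise was not limited to genes whose annotated start shows a long run.

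Factors that build ribosomes rose as well, by smaller amounts. Of 114 ribosome biogenesis genes tested, 52 rose and none fell (median 0.48), against 16 rises and 1 fall in controls (median 0.22). Their sum was 2893, 3151 and 2989 CPM at day 9 and 3639 and 4175 CPM at day 13, with no overlap. Nop56, a core protein of box C/D snoRNPs, had 29.1, 29.6 and 18.2 CPM at day 9 and 56.1 and 102 CPM at day 13, a rise of 1.68 ± 0.26 (adjusted p = 6.8e-04). Nhp2, a core protein of H/ACA snoRNPs, had 10.6, 11 and 10.6 CPM at day 9 and 28.1 and 28.8 CPM at day 13. It rose by 1.41 ± 0.19 (adjusted p = 5.1e-05) while its control change was 0.00, and it was the only gene of the list whose day change differed between the siRNAs (1.41 ± 0.33, adjusted p = 0.046). Grwd1 and Rrp8 rose by 1.38 and 1.33. The count of 52 fell to 6 without day 13 replicate 2 and to 34 without day 9 replicate 3, while the median stayed between 0.38 and 0.56 with any 1 library left out.

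Rmrp, the noncoding RNA of the ribonuclease MRP that processes ribosomal RNA, had 7.93, 6.39 and 4.92 CPM at day 9 and 41.2 and 32.3 CPM at day 13, a rise of 2.50 ± 0.22 (adjusted p = 4.6e-06). Controls rose by 2.07 (adjusted p = 5.2e-05). As Rmrp is not translated, its fragments in these libraries are not ribosome footprints.

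Among 33 initiation factors outside eIF3 5 rose and 1 fell (median 0.17), against 5 rises and 3 falls in controls (median -0.01). The other 27 did not pass the test in Eif3m siRNA livers. Eif4a1, the cap-complex RNA helicase, rose by 0.58 and its paralogue in the exon junction complex, Eif4a3, by 0.61, and the controls rose by 0.44 and 0.60. Eif2b2 rose by 0.80, and Mcts1, which acts in reinitiation, fell by 1.05 on the log2 scale and also fell in controls (adjusted p = 0.018). Of 20 aminoacyl-tRNA synthetases 5 rose (median 0.29), against 5 rises and 1 fall in controls (median 0.21). Farsa rose most, by 1.07, and by 0.70 in controls (adjusted p = 0.031). Without day 13 replicate 2 no initiation factor and 1 synthetase were called higher, without day 13 replicate 1 the initiation factors numbered 3, and without day 9 replicate 3 the synthetases numbered 1.

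Mitochondrial gene expression and respiratory chain genes rose in the Eif3m siRNA livers, with smaller median changes in controls. Of 76 mitochondrial ribosomal protein genes 32 rose and none fell (median 0.40), against 5 rises in controls (median 0.10). Their sums were 2540, 2664 and 2593 CPM at day 9 and 3248 and 3562 CPM at day 13. Mrps26 had 22.0, 20.6 and 19.7 CPM at day 9 and 38.9 and 47.7 CPM at day 13, a rise of 1.09 ± 0.16 (adjusted p = 1.0e-04), against 0.49 in controls (adjusted p = 0.10). Mrps23, Mrps2 and Mrpl19 rose by 1.12, 1.04 and 0.98. Of 75 nuclear-encoded respiratory chain genes 24 rose and 3 fell (median 0.29), while controls had 3 rises and 6 falls (median -0.05).

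Cox5a, a subunit of complex IV, had 251, 243 and 221 CPM at day 9 and 401 and 382 CPM at day 13, a rise of 0.72 ± 0.13 (adjusted p = 0.001) beside a control change of 0.07. Cox6a1, another complex IV subunit, rose by 0.99, Ndufa3 of complex I by 0.75 and Cyc1, the cytochrome of complex III, by 0.62. Ndufb11 of complex I was the only gene of these 2 lists whose day change differed between the siRNAs (0.92, adjusted p = 0.049), and it was chosen after its values were seen. The respiratory chain sums went from 15824 to 16308 CPM at day 9 to 17302 and 17895 CPM at day 13. Without day 13 replicate 2 only 1 mitochondrial ribosomal gene and 2 respiratory chain genes were called higher, and 24 and 17 without day 13 replicate 1. Without day 9 replicate 3 the counts were 22 and 17. The medians ranged from 0.34 to 0.46 and from 0.24 to 0.33 with any 1 library left out.

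**Figure D2:**
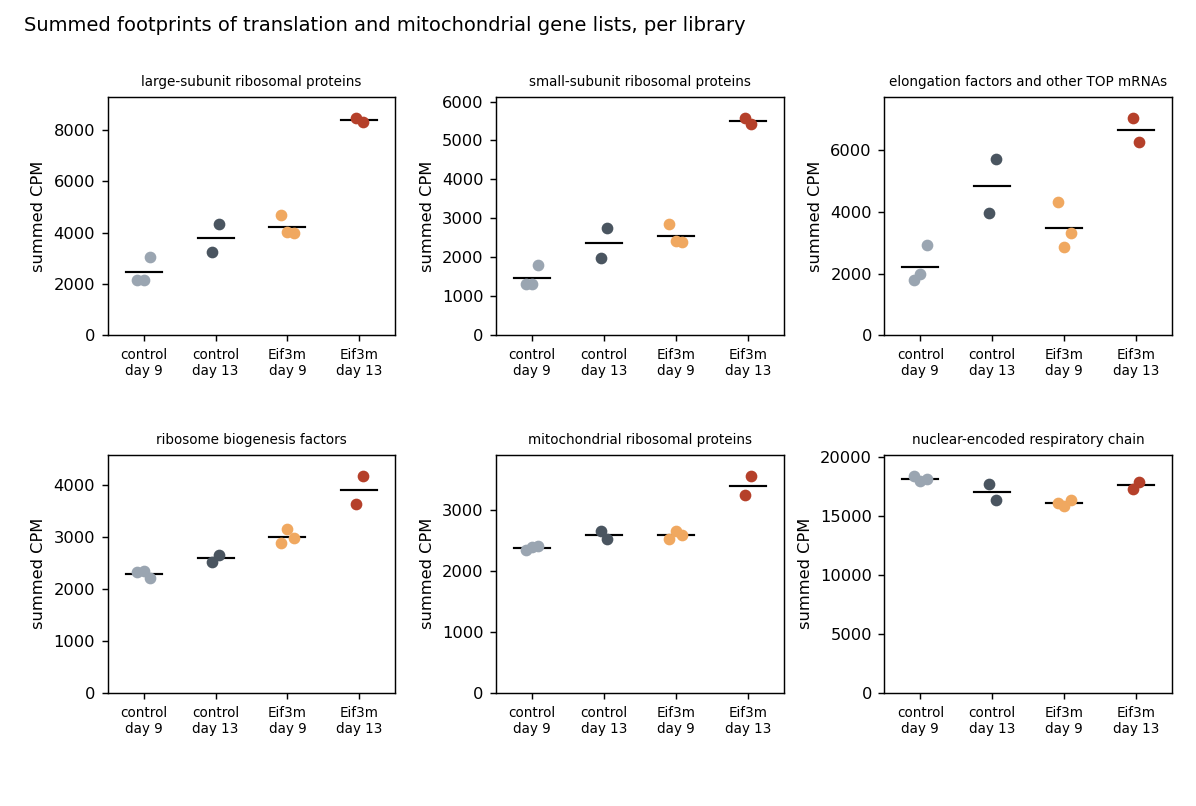
Summed footprint CPM of 6 gene lists in each library (points) with the group mean (bar), for control and Eif3m siRNA livers on day 9 (3 libraries each) and day 13 (2 libraries each). For both ribosomal protein lists, biogenesis factors and mitochondrial ribosomal proteins, the 2 Eif3m siRNA day 13 libraries lie above all 8 others.

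Genes of antigen presentation moved in the opposite direction. Among 21 genes of MHC and antigen presentation 12 fell and none rose in Eif3m siRNA livers (median -0.70), against 8.72% of all genes falling, and in controls 1 fell and 3 rose (median 0.01). Cd74, the invariant chain that escorts MHC class II molecules, had 752, 534 and 615 CPM at day 9 and 214 and 137 CPM at day 13, a fall of -1.87 ± 0.22 (adjusted p = 5.8e-05). Its control libraries held 344, 376 and 414 CPM at day 9 and 279 and 430 CPM at day 13, so the 2 control days overlapped. H2-Ab1, a class II β chain, had 127, 100 and 126 CPM at day 9 and 33.0 and 26.7 CPM at day 13, a fall of -2.01 ± 0.22 (adjusted p = 2.1e-05), against -0.28 in controls. H2-DMb1, a chain of the class II peptide loader, had 10.4, 7.60 and 12.2 CPM at day 9 and 1.15 and 1.37 CPM at day 13, a fall of -2.91. Its reads may be shared with the near-identical H2-DMb2.

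For these 3 genes the day change itself differed between the siRNAs, by -1.78 for Cd74 (adjusted p = 0.011), -1.74 for H2-Ab1 (adjusted p = 0.01) and -2.92 for H2-DMb1 (adjusted p = 0.013). Ctss, the cathepsin that trims the invariant chain, was the other gene of the list that differed (-1.79, adjusted p = 0.0043): it fell from 71.9, 55.2 and 74.2 CPM to 32.1 and 20.6 CPM. Nlrc5, the activator of class I genes, fell by 1.87 on the log2 scale at levels under 4 CPM in every library, and in controls by 3.16 (adjusted p = 0.038). The immunoproteasome subunits Psmb8 and Psmb10 fell by 0.70 and 0.84 on the log2 scale and were the only 2 of 39 proteasome genes to change. The number of MHC genes called lower was 4 without day 13 replicate 2 and between 10 and 13 without each of the other Eif3m siRNA libraries.

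Interferon-stimulated genes fell in 14 of 38 cases and rose in 1 (median -0.69), while controls had 2 falls and 2 rises (median -0.08). Gbp2 and Gbp7, guanylate-binding GTPases induced by interferon gamma, had 24.0, 20.7 and 20.5 CPM and 26.9, 16.8 and 20.8 CPM at day 9, and 7.73 and 7.68 CPM and 8.97 and 6.90 CPM at day 13. Neither gene's days overlapped, and the falls were -1.48 ± 0.23 (adjusted p = 2.0e-04) for Gbp2 and -1.51 ± 0.27 (adjusted p = 8.0e-04) for Gbp7. Control changes were -0.24 and -0.09. Gbp3 fell by 1.80 on the log2 scale, and Ifit1 by 1.55, with a larger control fall of -2.89. The only gene of the list whose day change differed between the siRNAs was Iigp1, an interferon gamma-induced GTPase (-1.16, adjusted p = 0.028), chosen after its values were seen. Left-out libraries gave 2 falls without day 13 replicate 2, 7 without day 13 replicate 1, and between 10 and 14 without each day 9 Eif3m siRNA library.

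Promoters of interferon-responsive genes often hold paired GAAA repeats. The upstream stretches of the 4 named interferon-stimulated genes are shown, from RefSeq (GRCm38.p6), with the match in capitals. The pattern searched was GAAA, 2 bases of any kind and GAAA again, on either strand, which reads TTTC, 2 bases and TTTC in these 4 genes. They lie at chr3:142620594-142620623 (+) for Gbp2, chr3:142530273-142530302 (+) for Gbp7, chr3:142559989-142560018 (+) for Gbp3 and chr19:34640775-34640804 (+) for Ifit1, with the match starting at -59, -53, -45 and -104 from the annotated start.
Gbp2: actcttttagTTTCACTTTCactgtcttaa
Gbp7: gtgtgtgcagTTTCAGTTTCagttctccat
Gbp3: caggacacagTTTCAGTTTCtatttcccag
Ifit1: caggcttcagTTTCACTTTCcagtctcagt
In the 250 bases before the start, 17 of 32 matched interferon-stimulated genes (53.1%) held this pattern on either strand, against 3.05% of all genes. The repeat was found in 3 of 16 matched genes of MHC and antigen presentation (18.8%), and not in H2-DMb1, Psmb8 or Psmb10. A match is a description of the sequence and not evidence of a bound factor.

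Markers of liver macrophages fell beside these genes. Of 13 Kupffer cell markers 9 fell and none rose (median -0.63), and of 18 monocyte and macrophage markers 9 fell and 2 rose (median -0.67). Controls had 4 falls among the Kupffer markers (median -0.46) and 3 rises and no fall among the monocyte and macrophage markers (median 0.36). The 14 Kupffer markers summed to 936, 968 and 963 CPM at day 9 and 515 and 438 CPM at day 13, against 822 to 948 CPM and 747 and 773 CPM in controls. The 23 monocyte and macrophage markers summed to 615, 596 and 650 CPM at day 9 and 480 and 348 CPM at day 13. No member of either list was at 0 in all 5 libraries. These are whole-liver libraries, so fewer cells of a type and less RNA or translation per cell cannot be told apart, and the part of macrophage numbers in the MHC and interferon results was not tested.

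Cd5l, a protein secreted by Kupffer cells, had 227, 189 and 206 CPM at day 9 and 107 and 105 CPM at day 13, a fall of -0.97 ± 0.15 (adjusted p = 1.6e-04), against -0.13 in controls. Timd4, a receptor for dead cells on resident Kupffer cells, fell by 1.16 and Clec1b by 1.32 on the log2 scale. Aif1, Fcer1g and Cd68, general macrophage genes, fell by 1.63, 1.30 and 1.29 on the same scale, and for Fcer1g the difference from the control change passed the test (-1.50, adjusted p = 0.028). Slc40a1 (ferroportin), the iron exporter of Kupffer cells and hepatocytes, fell from 375, 455 and 431 CPM to 167 and 136 CPM (-1.48 ± 0.16, adjusted p = 1.1e-05) and differed from its control change of -0.23 (adjusted p = 0.0081). C6, a complement component in the Kupffer list and in that of coagulation and complement, chosen after its values were seen, differed the other way (1.27, adjusted p = 0.049): it changed by -0.37 here (adjusted p = 0.17) and fell by 1.64 on the log2 scale in controls. S100a8 of neutrophils and Cd4 were the only called genes of the neutrophil and lymphocyte lists, and both fell, from under 4 CPM; neither was called without day 13 replicate 1 or 2. Without day 13 replicate 2 the calls dropped to 2 Kupffer and 2 macrophage genes, and the Kupffer count was 6 without day 13 replicate 1 or day 9 replicate 3.

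Other nonparenchymal markers showed no such change in the Eif3m siRNA livers. Only Fbn1 was called among 33 stellate cell, collagen and matrix genes (-0.63, adjusted p = 0.044), with a list median of -0.05, whereas 17 of the 33 rose in controls and none fell (median 0.67). The sums were 1805, 1874 and 1816 CPM at day 9 and 1919 and 1619 CPM at day 13 in Eif3m siRNA livers, and 1399 to 1508 CPM and 2291 and 2368 CPM in controls. Sinusoidal endothelial genes had 1 rise (Flt1) and 1 fall (F8) among 21, and the cholangiocyte list 1 rise (Sox9) among 11.

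**Figure D3:**
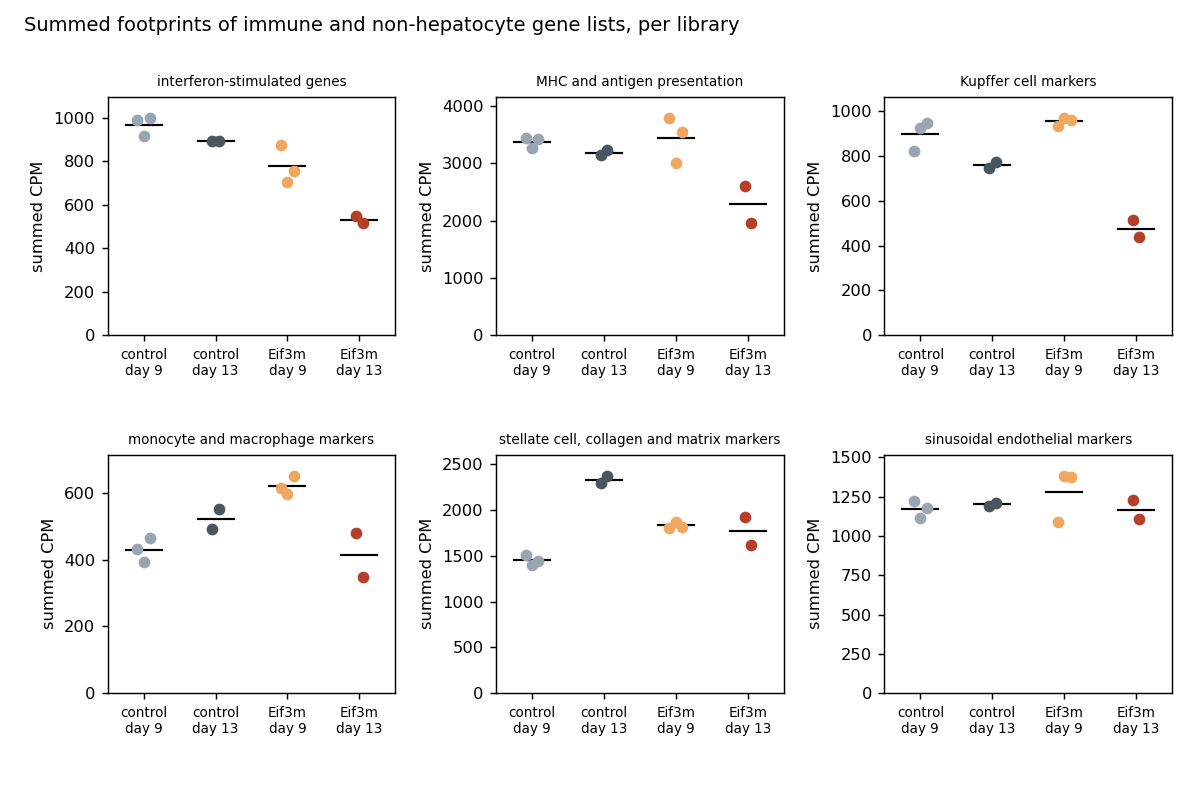
Summed footprint CPM of 6 gene lists in each library (points) with the group mean (bar), grouped as control and Eif3m siRNA livers on day 9 (3 libraries each) and day 13 (2 libraries each). In the interferon, MHC and Kupffer panels both Eif3m siRNA day 13 libraries lie below all 8 others, and in the collagen and matrix panel the 2 control day 13 libraries lie above all others.

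Among called genes with a mean of at least 5 CPM and days that did not overlap, the largest fall was that of A1bg. This gene, a plasma glycoprotein of the immunoglobulin family, had 1256, 1188 and 2331 CPM at day 9 and 21.8 and 23 CPM at day 13, a fall of -6.14 ± 0.70 (adjusted p = 0.0019), or 70.6-fold. Control livers held 1366 to 3982 CPM at day 9 and 1552 and 1103 CPM at day 13. The difference of the day changes was -5.13 ± 0.79 and just missed the threshold (adjusted p = 0.056). Serpina12 (vaspin), a serpin secreted by liver and fat, had 113, 65.0 and 62.6 CPM at day 9 and 14.3 and 11.1 CPM at day 13, a fall of -2.71 ± 0.30 (adjusted p = 5.7e-05), while control libraries stayed between 82.2 and 126 CPM. For Serpina12 the difference between the siRNAs did pass (-2.97 ± 0.38, adjusted p = 0.0035).

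Among the remaining large falls were enzymes that oxidise or conjugate foreign compounds and hormones. Sult3a1 and Sult3a2, a pair of similar sulfotransferases that may share reads, fell by 2.89 and 2.72 on the log2 scale, from 168 to 459 CPM and 68.8 to 207 CPM at day 9 to 48.1 and 43.1 CPM and 23.8 and 22.6 CPM at day 13. The flavin monooxygenase Fmo6 fell by 2.82, and Dio1, the deiodinase that activates thyroid hormone, by 2.76 on the same scale. Ankrd55 fell by 3.82 and by 2.81 in controls. Mup4, a major urinary protein whose family is near-identical in sequence, fell by 3.09 and had 5.67 to 15.4 CPM at day 9. The day 9 libraries spread widely in several of these genes, as in Fmo6 with 26.9, 8.62 and 16.8 CPM. The day 13 libraries lay below them in each case by the choice of genes, which is no support.

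By the same rule, with at least 5 CPM and no overlap of days, the largest rises were in genes of unlike function. Cyp26b1, which degrades retinoic acid, rose by 2.81 ± 0.73 (adjusted p = 0.04), and its call was lost in 8 of the alternative settings and left-out libraries. G0s2, an inhibitor of the lipase ATGL, had 18.9, 21.6 and 38.5 CPM at day 9 and 157 and 184 CPM at day 13, a rise of 2.69 ± 0.31 (adjusted p = 3.9e-04), against 0.36 in controls. Angptl8, a hepatokine that inhibits lipoprotein lipase after feeding, had 28.7, 25.4 and 33.6 CPM at day 9 and 179 and 149 CPM at day 13, a rise of 2.48 ± 0.41 (adjusted p = 0.0063). Tfrc, the transferrin receptor, rose from 5.80, 10.0 and 5.85 CPM to 35.8 and 47.8 CPM (2.55 ± 0.27, adjusted p = 2.6e-05), and rose by 1.49 in controls. Tsku, a secreted proteoglycan of the liver, rose by 2.16. Differences from control did not pass the test for any of these 5 genes, with adjusted p between 0.058 for G0s2 and 0.99 for Tsku. Iron storage genes fell as Tfrc rose: Fth1 and Ftl1, the ferritin chains, went from 770 to 948 CPM and 922 to 1314 CPM at day 9 to 372 and 255 CPM and 408 and 390 CPM at day 13. Fth1 also fell in controls (-1.11, adjusted p = 0.026), and Ftl1 changed by -0.48 there (adjusted p = 0.45). Neither gene's difference from its control change passed the test (adjusted p = 0.78 and 0.44). In the list of 21 metallothionein and iron genes 1 rose and 5 fell, and 2 to 3 fell without day 9 replicate 3 or either day 13 library.

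**Figure D4:**
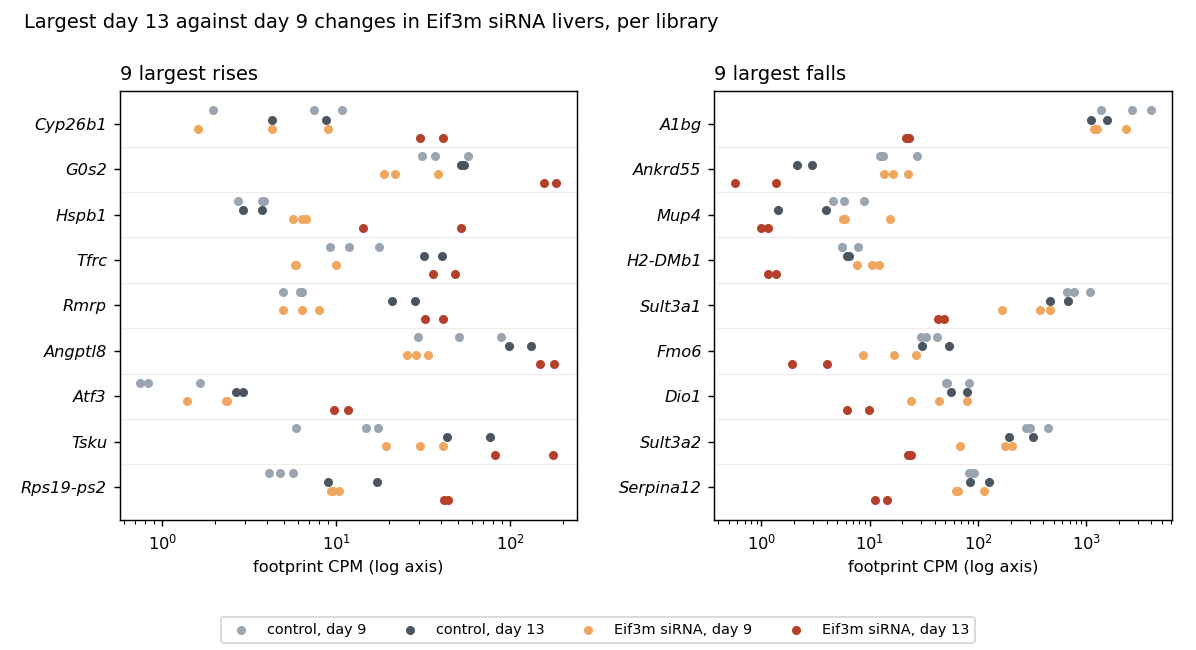
Footprint CPM (log axis) in each library for the 9 genes with the largest rises and the 9 with the largest falls in Eif3m siRNA livers from day 9 to day 13, among called genes with a mean of at least 5 CPM whose days did not overlap. Red points (Eif3m siRNA, day 13) stand clear of orange points (Eif3m siRNA, day 9) in each gene by the choice of genes, while the control points show whether the same step occurred without the knockdown, as it did for Rmrp.

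Cytosolic heat shock chaperones rose in 15 of 21 cases with no fall (median 0.66), and in 10 cases in controls (median 0.48). Hspb1, a small heat shock protein, had 6.71, 5.67 and 6.31 CPM at day 9 and 14.3 and 52.4 CPM at day 13, a rise of 2.57 ± 0.38 (adjusted p = 9.8e-04) with very unequal day 13 libraries. Hspa8, the constitutive HSP70, rose by 1.00 ± 0.17 and by 1.96 in controls. Hsph1 and Hsp90aa1 rose by 1.19 and 1.14, and by 1.71 and 0.95 in controls. The inducible Hspa1a and Hspa1b, which are near-identical, may share reads and were chosen after their values were seen, rose by 0.86 and 0.85 but by 2.95 and 2.98 in controls, and these differences passed the test (-2.09 and -2.13, adjusted p = 0.01 and 0.0081). Heat shock calls dropped to 4 without day 13 replicate 2 and to 10 without day 9 replicate 3.

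Among 27 p53 targets in the Eif3m siRNA livers 7 rose and none fell (median 0.35), against 2 rises and 1 fall in controls (median -0.07). Gdf15, a stress-induced hormone, had 9.15, 8.28 and 8.77 CPM at day 9 and 18.0 and 31.8 CPM at day 13, a rise of 1.61 ± 0.26 (adjusted p = 2.8e-04), and control libraries held 1.94 to 3.31 CPM at day 9 and 1.74 and 0 CPM at day 13, so its control level at day 13 rests on very few counts. Gadd45a, a growth arrest gene, had 23.7, 34.8 and 21.1 CPM at day 9 and 61.8 and 92.3 CPM at day 13, a rise of 1.57 ± 0.20 (adjusted p = 5.0e-05), with 3.48 to 7.86 CPM in the 5 control libraries. In both genes the day change differed between the siRNAs, by 3.30 ± 0.74 (adjusted p = 0.041) and 2.31 ± 0.44 (adjusted p = 0.015). Cdkn1a, the p21 cell cycle inhibitor, had 36.2, 37.7 and 21.5 CPM at day 9 and 59.0 and 69.8 CPM at day 13 (1.04 ± 0.20, adjusted p = 0.0016), while every control library stayed below 2 CPM. Its control change at that low level was 0.66 (adjusted p = 0.66), and the difference of the day changes did not pass (0.38, adjusted p = 0.9). Both Gadd45a and Cdkn1a also belong to a list of 17 tested G1 regulators and growth arrest genes, of which 4 rose, none fell and 13 did not pass, with a median of -0.28 and 11 of the 17 below 0 (controls 3 rises, 1 fall, median 0.10). The other two that rose were Btg2 and Ccnd3, which also rose in controls, by 1.27 and 0.96, and only 1 gene was called without day 13 replicate 2. Gadd45b, chosen after its values were seen and at a mean of 0.499 CPM in the Eif3m siRNA libraries, differed from its control change in the opposite direction to Gadd45a (-5.22, adjusted p = 0.03): it rose by 3.61 in controls and its change of -1.61 here did not pass.

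Among 25 genes of the integrated stress response 6 rose and 1 fell (median 0.35), against 2 rises and no fall in controls (median 0.08). Ddit3 (CHOP) had 5.09, 7.41 and 5.08 CPM at day 9 and 10.9 and 13.2 CPM at day 13 (1.06 ± 0.30, adjusted p = 0.02), Atf3 rose by 2.41 and had 1.38 to 2.34 CPM at day 9, and Nupr1 rose by 2.24 here and by 2.94 in controls. Genes of ER folding split, with 4 rises and 4 falls among 27 (median 0.03), against 7 rises and 1 fall in controls (median 0.13). Dnajb9, an ER co-chaperone, fell by 1.09 on the log2 scale, from 19.4 to 29.3 CPM to 15.5 and 10.9 CPM, while it rose by 0.83 in controls, a difference of -1.91 (adjusted p = 0.012). Crebrf fell by 1.92 on the log2 scale, and by 1.59 in controls. Without day 13 replicate 2 only 1 p53 target and 1 integrated stress response gene were called higher, and the lowest p53 median with any 1 library left out was 0.08. The ER counts were 0 higher and 1 lower without day 13 replicate 2, 1 and 2 without day 13 replicate 1, and 0 and 3 without day 9 replicate 3.

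Enzymes that act on foreign compounds fell more often than they rose, in the Eif3m siRNA livers and in controls. Of 49 cytochrome P450 genes of families 1 to 3, 13 fell and 3 rose (median -0.24), against 11 falls and no rise in controls (median -0.27). Cyp2c37, Cyp2c54 and Cyp2c69, neighbouring members of a family of similar sequences, fell by 1.09, 1.09 and 1.48 on the log2 scale, and in controls by 0.54, 0.56 and 0.94. Of 47 conjugating enzymes 10 fell and 7 rose, against 17 falls and 2 rises in controls. Sult1b1 fell from 21.5, 23.2 and 27.3 CPM to 5.15 and 5.74 CPM (-2.11 ± 0.22, adjusted p = 9.0e-06), with -1.60 in controls, and Gstm1 rose by 0.82. Neither list held a gene whose day change differed between the siRNAs. Without day 13 replicate 2 the calls were 4 lower P450 genes and 2 higher and 2 lower conjugating enzymes, and 16 conjugating enzymes were called lower without day 9 replicate 1.

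Bile acid synthesis and transport genes fell in 10 of 30 cases and rose in 2 (median -0.37), against 3 falls and 2 rises in controls (median -0.24). Cyp7b1, of the alternative synthesis route, fell by 1.79 on the log2 scale, from 81.0 to 107 CPM to 34.4 and 21.6 CPM, and the uptake transporters Slco1a1 and Slco1b2 by 1.03 and 0.95. In controls these 3 genes changed by -1.13 (adjusted p = 0.086), -0.58 (adjusted p = 0.04) and -0.48 (adjusted p = 0.078). Nr0b2 (SHP), the nuclear receptor that represses bile acid synthesis, rose from 22.9, 31.6 and 22.8 CPM to 66.4 and 84.7 CPM (1.57 ± 0.29, adjusted p = 0.0038). Its control change was 0.00, but the difference of the day changes did not pass the test (adjusted p = 0.15). Ppara, the receptor that drives fatty acid oxidation, had 273, 179 and 242 CPM at day 9 and 69.3 and 89.0 CPM at day 13, a fall of -1.52 ± 0.18 (adjusted p = 3.0e-05), and -1.04 in controls. In the list of 36 oxidation genes, which includes Ppara, 10 fell and none rose (median -0.37), against 5 falls and no rise in controls (median -0.30). Fabp1 (-1.17), Acot4 (-1.65) and Cyp4a10 (-0.90) were among the falls. Cyp4a10 fell by 2.07 on the log2 scale in controls (adjusted p = 0.0014), the difference of 1.17 did not pass (adjusted p = 0.25), and its call in the Eif3m siRNA livers was lost in 8 of the alternative settings and left-out libraries. Left-out libraries changed these counts: no bile acid gene and 1 oxidation gene were called lower without day 13 replicate 2, the bile acid falls were 5 without day 13 replicate 1 or day 9 replicate 3, and the oxidation falls 18 without day 9 replicate 2.

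Lists of plasma proteins made by hepatocytes differed in direction. Of 44 coagulation and complement genes 13 fell and none rose (median -0.24), against 7 falls and 1 rise in controls (median 0.00). Klkb1 (prekallikrein) fell by 1.08 on the log2 scale, Proz by 0.80 and F9 by 0.78. Their control changes were -0.77 (adjusted p = 0.011), -0.37 and -0.44, and no difference passed the test (adjusted p = 0.66, 0.34 and 0.63). Of 27 acute phase genes 7 fell and none rose (median -0.48), while controls had 5 rises and 2 falls (median 0.15). Serpina3m had 1591, 1315 and 1701 CPM at day 9 and 464 and 446 CPM at day 13, a fall of -1.76 ± 0.17 (adjusted p = 4.6e-06), against -0.92 in controls. Hp (haptoglobin), chosen after its values were seen, was the gene of this list whose day change differed between the siRNAs (-1.16, adjusted p = 0.026): it changed by -0.16 here and by 1.00 in controls. Among 26 albumin and plasma carrier genes 5 rose and 3 fell (median 0.18), against 6 rises and 2 falls in controls (median 0.20), with rises of 1.58 in Serpina7, a carrier of thyroid hormone, and 0.65 in Rbp4, the retinol carrier, which was chosen after its values were seen. The 12 hepatocyte markers had 2 rises and 1 fall (median 0.18), and 25 glucose output and glycogen genes had 1 rise and 3 falls (median 0.05). These 3 lists had 1, 0 and 1 rises and 0, 0 and 1 falls without day 13 replicate 2, and without day 9 replicate 1 they had 7, 3 and 5 rises and 2, 2 and 4 falls. Coagulation falls numbered 3 without day 13 replicate 2, 8 without day 13 replicate 1 and 7 without day 9 replicate 3, and acute phase falls 4 and 2 without day 13 replicate 2 and day 9 replicate 3.

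A pair of apolipoprotein genes of triglyceride transport fell in Eif3m siRNA livers by more than in controls. Apoa5 had 1633, 1154 and 1573 CPM at day 9 and 495 and 641 CPM at day 13, a fall of -1.35 ± 0.17 (adjusted p = 4.3e-05), and Apoa4 fell from 549, 508 and 499 CPM to 317 and 203 CPM (-1.01 ± 0.19, adjusted p = 0.0015). Control changes were -0.20 and 0.33, and the differences passed the test (-1.15 and -1.34, adjusted p = 0.021 and 0.02). Lpl, the lipase of capillaries, rose by 1.46, and by 2.13 in controls. Of 17 genes of the IGF axis and insulin signalling 1 rose and 3 fell (median -0.05), against 2 rises and 1 fall in controls (median 0.07). Ghr, the growth hormone receptor, went from 177, 198 and 225 CPM to 96.8 and 86.5 CPM (-1.14 ± 0.15, adjusted p = 5.1e-05), and Socs2, a target of that pathway, from 7.22, 4.29 and 5.23 CPM to 1.72 and 1.23 CPM (-2.03 ± 0.41, adjusted p = 0.0018). Socs2 also differed from its control change of 0.38 (adjusted p = 0.041). Insr, the insulin receptor, fell by 0.45 on the log2 scale and Irs1, its adaptor, rose by 0.65 and by 1.47 in controls. No gene of this list was called higher and 2 were called lower without day 13 replicate 1, and the counts were 0 and 1 without day 13 replicate 2.

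Amino acid and nitrogen metabolism genes rose more often than they fell, with a called share near that of all genes. Over all genes tested 18.9% were called in Eif3m siRNA livers, 10.2% as rises and 8.72% as falls. Of 48 genes of the urea cycle and amino acid catabolism 8 rose and 2 fell (median 0.24), with 5 rises and 3 falls in controls (median -0.05), and 2 rose without day 13 replicate 2. Nags, which makes the activator of the urea cycle, had 62.9, 59.3 and 54.6 CPM at day 9 and 122 and 151 CPM at day 13, a rise of 1.22 ± 0.14 (adjusted p = 1.6e-05), and Got1 rose by the same amount. Ass1 and Glud1 rose by 0.67 and 0.68. Of these, Nags, Got1 and Glud1 also rose in controls, by 0.63, 0.76 and 0.97. Ttr, a carrier of thyroid hormone and among the most translated liver mRNAs, rose from 5698, 4704 and 5398 CPM to 8278 and 8160 CPM (0.64 ± 0.13, adjusted p = 0.0024).

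**Figure D5:**
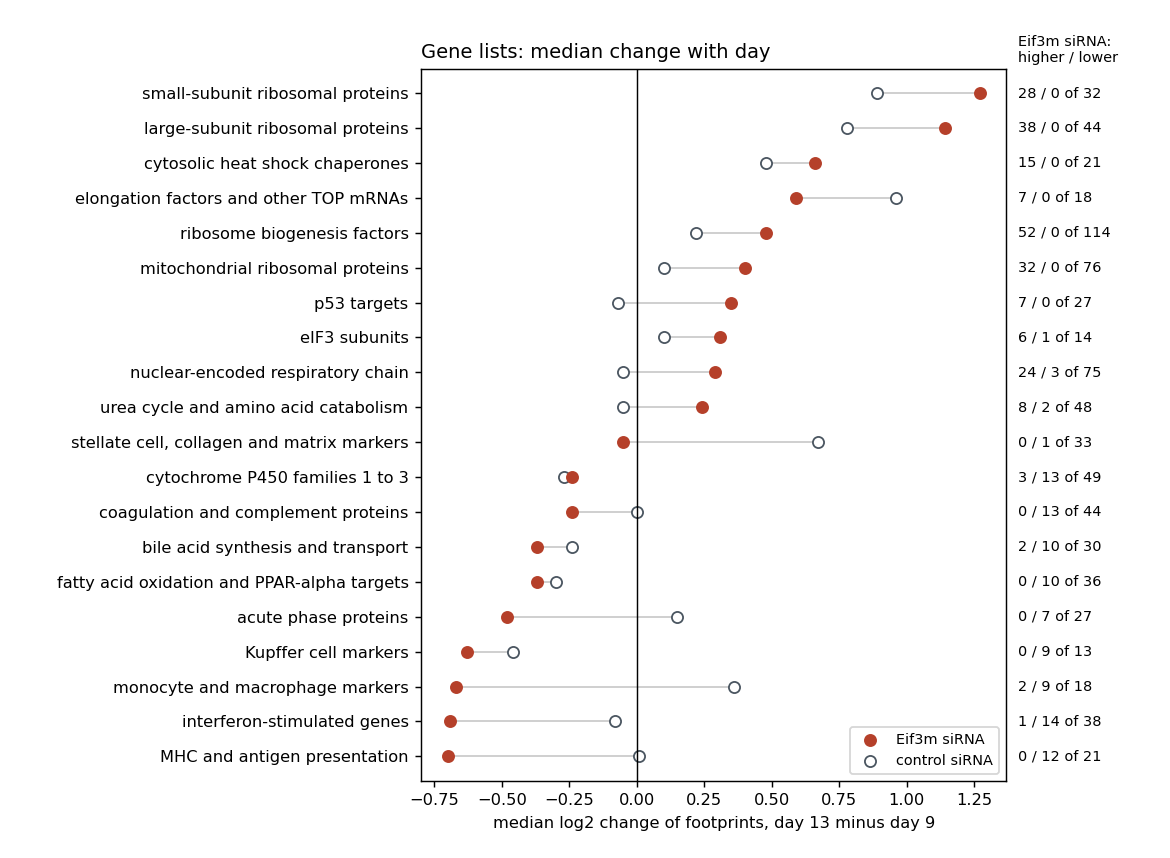
Median log2 footprint change from day 9 to day 13 over the tested genes of 20 lists, for Eif3m siRNA livers (filled) and control livers (open), with the number called higher and lower in Eif3m siRNA livers at the right. Ribosomal protein lists stand highest in Eif3m siRNA livers and immune lists lowest, and the collagen and matrix list is near 0 there and at 0.67 in controls.

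The test of the difference between the siRNAs, applied to all 12213 genes, called 100 (0.819%), with 27 day changes higher in the Eif3m siRNA livers (0.221%) and 73 lower (0.598%). Of the 73, 30 were called as falls in Eif3m siRNA livers alone, 29 as rises in controls alone, 9 as opposite changes and 5 as the same direction in both. Of the 27, 11 rose in Eif3m siRNA livers alone, 12 fell in controls alone, 3 went opposite ways and 1 the same way. Of the 100 differences, 41 thus involved genes called in controls alone.

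Col1a1, the main fibrillar collagen chain, was the clearest of these. It had 37.4, 30 and 28.5 CPM at day 9 and 28.9 and 22.5 CPM at day 13 in Eif3m siRNA livers, which overlapped (-0.36, adjusted p = 0.23), but went from 9.65 to 15.9 CPM to 99.8 and 108 CPM in controls (3.08, adjusted p = 1.2e-08). The difference was -3.44 ± 0.28 (adjusted p = 1.4e-06). Col3a1 and Col1a2, chosen after their values were seen, differed by -2.28 and -1.96 (adjusted p = 3.6e-05 and 3.2e-04), and in all 9 matrix genes differed, all lower. G6pc, the last enzyme of glucose output, changed by -0.36 in Eif3m siRNA livers, where it already stood at 78.7 to 160 CPM at day 9, and rose from 24.0 to 32.3 CPM to 138 and 112 CPM in controls (difference -2.55, adjusted p = 0.011). Hrh3 differed by -2.72 (adjusted p = 0.049), and Ctgf, a matricellular YAP target that fell by 1.14 on the log2 scale and rose by 1.18 in controls, differed by -2.32 (adjusted p = 0.01).

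In the other direction, Slc43a1, an amino acid transporter, had 7.32, 4.79 and 4.46 CPM at day 9 and 7.44 and 11.9 CPM at day 13, and fell in controls from 15.8 to 16.7 CPM to 4.64 and 7.19 CPM (difference 2.37 ± 0.42, adjusted p = 0.0082). Junb, a subunit of AP-1, changed by 0.30 and by -1.74 in controls (difference 2.04, adjusted p = 0.045). Mettl20 differed by 2.04 (adjusted p = 0.049), and Nuak2, a kinase, rose by 1.36 with a control change of -0.08 (difference 1.44, adjusted p = 0.049). The count of 100 was 7 without Eif3m siRNA day 13 replicate 2 and 65 without replicate 1, 172 and 59 without Eif3m siRNA day 9 replicates 1 and 3, 43 and 24 without control day 13 replicates 1 and 2, and 52 without control day 9 replicate 2.

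RNA and footprint libraries carry the same sample codes in their titles, so RNA is another readout of the same samples and no independent support. Per the labels, the RNA libraries were made with different kits on the 2 days, so RNA was not compared between days. Only the siRNA effect at day 13 was compared with that at day 9. This test called 202 of 16444 genes (1.23%), 56 higher (0.341%) and 146 lower (0.888%), with a median gene at -0.14. It rests on few libraries: 0 genes were called without RNA Eif3m siRNA day 13 replicate 2 and 2065 without RNA control day 13 replicate 2, with 16 to 687 for the other 8 libraries, and 42.5% of calls were higher with DESeq2 size factors against 27.7% as fitted. Several of the footprint differences had RNA differences of the same sign: -1.67 for Cd74 (adjusted p = 0.013), -2.45 for H2-Ab1 (adjusted p = 0.039), -1.48 for Ctss (adjusted p = 0.026), -1.21 for Slc40a1 (adjusted p = 0.032), 2.47 for Gadd45a (adjusted p = 0.0065) and -1.98 for Dnajb9 (adjusted p = 0.013). A1bg, whose footprint difference just missed the threshold, had an RNA difference of -5.02 (adjusted p = 0.013). Col1a1 (-3.07, adjusted p = 0.061), Serpina12 (-2.32, adjusted p = 0.082) and Gdf15 (4.71, adjusted p = 0.22) did not pass in RNA. For the large-subunit ribosomal proteins 7 of 47 RNA differences were higher and none lower (median 0.57), beside none called in footprints (median 0.36).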

How the data were processed

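Ribosome footprints and RNA from whole mouse liver were measured in 20 libraries. The deposited table gives the authors' expected counts per gene symbol (38784 symbols, 44.3% of nonzero values not whole). Per the submitters' processing notes, cutadapt, Bowtie and Bowtie2 were used. The sources used here name no genome build, counting rule or use of strand, so reads of near-identical genes may be split or doubled. Expected counts were rounded to whole numbers. Genes were filtered with filterByExpr, and libraries were scaled with TMM. The 10 footprint libraries were fitted with edgeR 4.0.16 (R 4.3.3) using the robust quasi-likelihood test with 4 groups, and p-values were adjusted by Benjamini-Hochberg over all genes tested (two-sided, threshold 0.05). SE is the log2 change divided by the square root of F. CPM are counts scaled to the TMM-adjusted library total. The RNA libraries were fitted alike. Footprint depth was 1.64 to 7.69 M counts per library, so changes of weakly covered genes may be missed. The procedure was tested on simulated counts.

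The genes named are the eIF3 subunits; the 10 largest rises and falls in Eif3m siRNA livers among called genes with days that do not overlap, a mean of at least 5 CPM and a symbol that is not a gene model; the 5 largest differences each way under the same conditions without that on overlap; and, in each of 49 gene lists, up to 4 called members with the largest changes and at least 1 CPM, or the 2 most abundant where none is called. Other genes are said to be chosen after their values were seen. A few genes that the rule names are not reported here. The members and lists were chosen with earlier results of these data known. Alternatives changed the scaling, filter, tool, robust option, depth, samples and block, with DESeq2 1.42.0 as the other tool. Replicate numbers were not taken as pairs, because labels tie them to no shared animal or batch and deviations of same-numbered libraries correlated by -0.08 to 0.07. Sequences came from RefSeq tables (GRCm38.p6), leaving out chromosome 18, and where a gene has several starts the most upstream was used.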

Additional observations from a re-analysis of the deposited data

Results flagged for a closer look

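The day change of 100 genes differed between Eif3m siRNA and control livers by the test of the difference itself (edgeR quasi-likelihood test, adjusted p below 0.05). The values here are differences in log2 day change, Eif3m siRNA minus control, for the 32 of these genes named in the report. Genes of the MHC class II pathway and macrophages were lower in Cd74 (-1.78), H2-Ab1 (-1.74), H2-DMb1 (-2.92), Ctss (-1.79) and Fcer1g (-1.50), and the interferon-stimulated Iigp1 had -1.16. Slc40a1, of macrophages and hepatocytes, had -1.25. Matrix genes were lower in Col1a1 (-3.44), Col3a1 (-2.28), Col1a2 (-1.96), Fbn1 (-1.57) and Ctgf (-2.32). Secreted and metabolic hepatocyte genes were lower in Serpina12 (-2.97), Apoa4 (-1.34), Apoa5 (-1.15), Hp (-1.16) and G6pc (-2.55). Chaperone and signalling genes were lower in Hspa1a (-2.09), Hspa1b (-2.13), Dnajb9 (-1.91), Socs2 (-2.41), Gadd45b (-5.22) and Hrh3 (-2.72). Higher values were found in Gdf15 (3.30), Gadd45a (2.31), Slc43a1 (2.37), Junb (2.04), Mettl20 (2.04), Nuak2 (1.44), Nhp2 (1.41), C6 (1.27) and Ndufb11 (0.92). What sets these differences was not tested, and day, set of mice and library run cannot be told apart.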

How the results depend on the processing

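All 134 named genes called in the Eif3m siRNA day change kept their sign under every alternative that tested them, and between 52 and 134 of them were still called, the fewest without Eif3m siRNA day 13 replicate 2. The call was lost most often for Fbn1 (14 alternatives), F8 (9), and Cyp26b1, Cyp4a10, Dio1 and Rpl23 (8 each). All 32 named differences also kept their sign where tested, with 3 to 32 still called. These genes were named because they were called in the same libraries, so keeping their sign was largely fixed in advance and is no support. Counts of called genes depended on the libraries. With 1 library left out, the Eif3m siRNA day change gave 343 to 2951 genes, the control day change 322 to 1654, the footprint difference 7 to 172 and the RNA difference 0 to 2065, and the cause was not tested. A left-out library can leave a lone day 13 library, which is then assumed to vary like the other groups. Thinning to the smallest library gave 1395 genes for the Eif3m siRNA day change and 50 for the difference, with fewer counts by construction. Without the count filter the footprint difference had 242 genes and the RNA difference 1034, and DESeq2 gave 752 for the RNA difference. The DESeq2 counts for the Eif3m siRNA day change and the footprint difference were 1587 and 126. Replicate numbers do not pair these libraries: with the replicate block the counts were 1736, 992, 75 and 56 for the Eif3m siRNA, control, footprint difference and RNA difference tests. Depth of 1.64 to 2.12 M counts in 3 of the 4 day 13 footprint libraries limits what can be seen in weakly covered genes.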

Other observations

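A few circadian clock genes changed with day in both siRNA groups. Of 19 tested, 1 rose and 3 fell in controls, with a median log2 change of -0.41. In Eif3m siRNA livers 1 also rose and 3 fell (median -0.36), a share near the 18.9% called among all genes tested. The falls numbered 1 without Eif3m siRNA day 13 replicate 2 and 6 without day 9 replicate 2. Arntl (BMAL1), the activator at the core of the clock, had 0.610, 1.6 and 0.462 CPM at day 9 and 6.30 and 5.33 CPM at day 13, a rise of 2.58 ± 0.52 (edgeR adjusted p = 0.002), and its control change was also 2.58 (adjusted p = 0.019). Per3, a repressor of the clock, had 13.2, 7.77 and 10.0 CPM at day 9 and 2.29 and 1.64 CPM at day 13, a fall of -2.50 ± 0.36 (adjusted p = 9.2e-05), with a control change of -3.17. Nr1d2 (REV-ERBβ) fell by 1.26 on the log2 scale, and by 1.25 in controls. In these 3 genes the day 13 libraries did not overlap the day 9 libraries, in the Eif3m siRNA group or in controls. The labels used here give no hour of collection, and its part in the day changes was not tested.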
